A study of Arabidopsis thaliana with 6 samples.

Results

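The genes described here are the DNA replication and E2F-RBR genes of Arabidopsis thaliana, 36 loci chosen by name: the MCM2-7 helicase, the PCNA clamp, CDC45, ribonucleotide reductase, the origin recognition complex, the licensing factors CDC6A, CDT1A and CDT1B, DNA polymerase subunits, the chromatin assembly complex CAF-1, and the E2F, DP and RBR1 regulators. The count table held 35 of them among 28775 loci, and all 35 passed the filter on low counts, as did 15857 genes in all. RNR2B (AT5G40942), a small subunit gene of ribonucleotide reductase, was not analysed here. RNA was taken from inflorescence apices of plants 2 weeks after bolting, with visible flower primordia removed, 6 to 8 h after a mock treatment (3 libraries, CT1 to CT3) or after dexamethasone (3 libraries, Dx4 to Dx6). Dexamethasone is a synthetic glucocorticoid that here switched on AP2m3, a form of the meristem and flower regulator APETALA2 (AP2). The plants grew at 21 °C in 16 h of light and 8 h of dark. The line, the promoter that drives AP2m3 and the inducible system were not given in the labels, which also name no separate line for the mock samples. The comparison asks how transcripts of the apex differ once AP2m3 is induced.

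DNA replication is licensed when the origin recognition complex (ORC), with CDC6 and CDT1, loads the MCM2-7 helicase onto DNA. CDC45 then helps to activate the helicase, PCNA tethers the polymerases to the template, ribonucleotide reductase supplies the deoxynucleotides, and CAF-1 places histones on the new DNA. Many of these genes are transcribed under E2F factors, which bind DNA with a DP partner. RBR1, the plant retinoblastoma protein, holds E2F back until kinases with D-type cyclins phosphorylate it. In the apex these genes mark dividing cells of the meristem and of young organs.

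The libraries held 1633571 to 2196781 counts, and CT1 was the shallowest. AP2 transcripts, from the transgene and the endogenous gene together, stood at 55.7, 60.5 and 78.1 CPM (counts scaled to library size) in mock, CT1 first, and at 1100, 1190 and 1010 CPM with dexamethasone, Dx4 first. Values below follow the same order. The groups also differed in other marker lists, where a gene is said to rise or fall at an edgeR adjusted p under 0.05. At that threshold 5.86% of all genes tested rose and 8.02% fell. The green leaf markers RBCS1A, LHCB1.3 and RCA summed to 7440 to 8830 CPM in mock and 4070 to 4360 CPM with dexamethasone, and 3 of 3 fell. Of 4 floral organ markers only SEP3 was called, and it fell (log2 fold change -0.97 ± 0.14 SE). All 4 were present in both groups. SEP3 was at 160 to 238 CPM in mock and 101 to 111 CPM with dexamethasone. AP3 was at 144 to 166 and 185 to 197 CPM (log2 fold change 0.32). PI was at 161 to 198 and 174 to 192 CPM (0.04), and AG at 71.6 to 83.9 and 66.4 to 71.2 CPM (-0.15). Of 5 meristem markers 3 were tested and CLV1 rose (0.72 ± 0.14), while CLV3 was at 0 in every library and WUS, at 53 counts over 6 libraries, was too low to test. CLV3 and WUS are the defining stem cell and organiser markers of the labelled meristem. The meristem markers STM and KNAT1 were present in every library, at 61.4 to 78.6 and 67.9 to 105 CPM, and were not called. The 8 dawn-phased clock genes, of which 3 were tested and LNK1 fell (-1.21), summed to 165, 121 and 73.5 CPM in CT1, CT2 and CT3 and to 61.9, 53.5 and 41.4 CPM with dexamethasone, so CT3 was the mock library nearest to the dexamethasone libraries. The part of these markers in the results below was not tested. In RNA from whole apices, more dividing cells and more transcript per dividing cell cannot be told apart.

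Of the 35 genes, 7 rose and none fell with dexamethasone, at an adjusted p under 0.05 in edgeR's quasi-likelihood test over all genes tested. Across all genes tested, 5.86% were called higher and 8.02% lower. The 7 were PCNA1, PCNA2, CDC45, TSO2, ORC1B, ORC2 and ORC6. At an unadjusted p under 0.05, edgeR gave 20 higher and 0 lower, against 12.3% and 14.4% of all genes tested. DESeq2's Wald test gave 11 and 0, against 5.76% and 7.62% of the 22400 genes it gave a p, and limma-voom gave 22 and 0, against 12.6% and 13.8%. The estimate lay above 0 for 31 genes and below 0 for RNR2A, ORC5, CDT1B and DPB. The median log2 fold change was 0.42, with a range of -0.36 to 1.03, against a median of 0.00 over all genes tested. In 15 of the 35 genes every dexamethasone library lay above every mock library, a pattern seen in 15.1% of all genes tested, and in 0 of 35 every one lay below, against 15.9%. The calls depended on the libraries. There were 4 genes called higher without CT1 (5.16% of all genes tested), 1 without CT2 (3%) and 21 without CT3 (11.3%). The count was 0 without Dx4 (3.15%), 1 without Dx5 (2.85%) and 0 without Dx6 (2.75%). Each of these fits has 1 library fewer, and what that alone does to the calls was not tested. The median log2 fold change was 0.41, 0.39 and 0.40 without Dx4, Dx5 and Dx6. Without CT1, CT2 and CT3 it was 0.28, 0.35 and 0.56. Other methods gave 5 with DESeq2 size factors (5.82%), 8 with library totals (6.31%), 12 with no filter beyond 1 count (5.3%), 0 with the Wald test (2.92%), 5 with limma-voom (5.68%) and 1 with a dawn-gene score as covariate (5.53%). At an unadjusted p under 0.05, 13 were higher without Dx4 (9.34% of all genes in that fit) and 13 without Dx6 (9.15%). At the same unadjusted p, 12 were higher and 1 lower without Dx5, and 8 higher and 2 lower with the dawn-gene score. For these fits no all-gene share at that p was computed. With the dawn-gene score 19 estimates lay above 0 and 16 below.

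**Figure D1:**
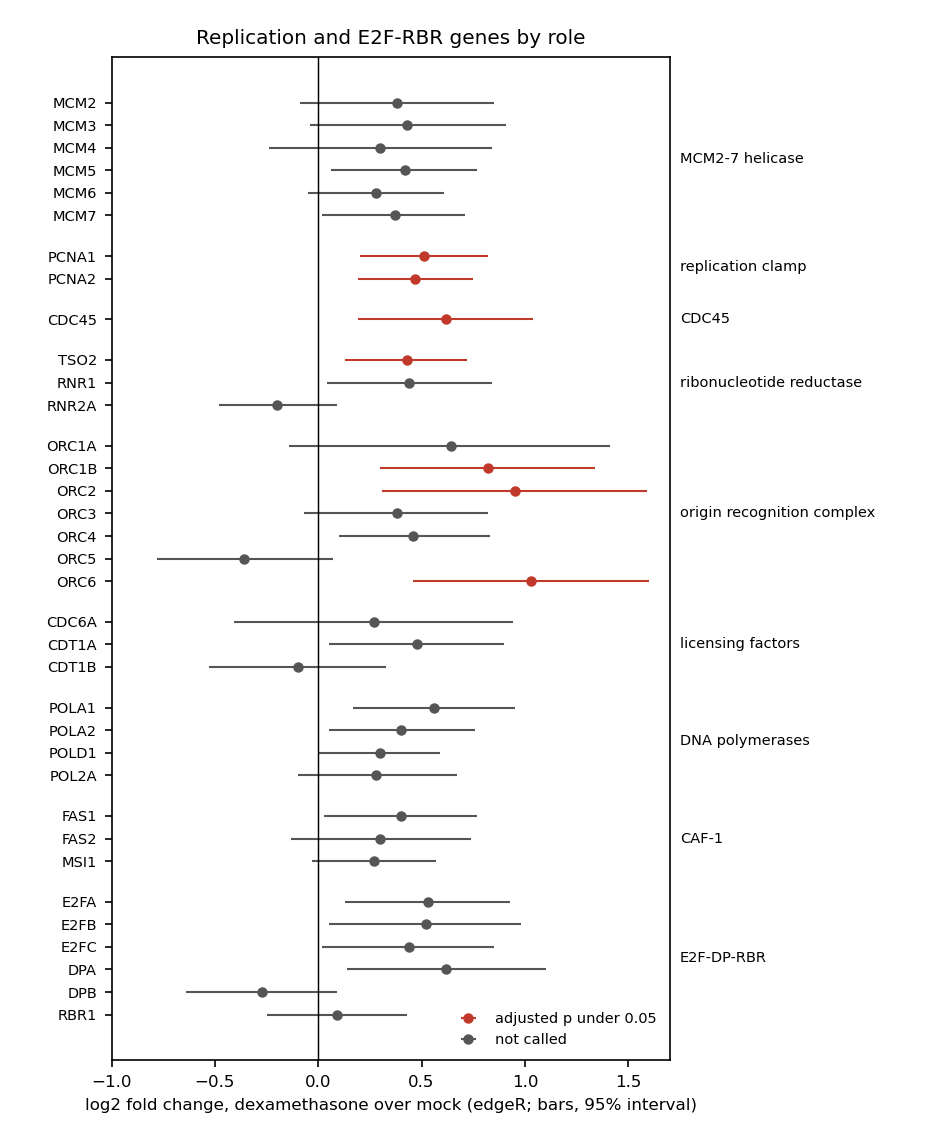
Log2 fold change of dexamethasone over mock (x axis, edgeR fit over 6 libraries; bars are 95% intervals) for the 35 genes, grouped by role, with the 7 called genes in red. Most points lie right of 0, ORC6 farthest at 1.03, and the 4 points left of 0 are RNR2A, ORC5, CDT1B and DPB.

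Origin recognition showed the highest estimates. ORC6 (AT1G26840), a small subunit of the complex, was at 10.6, 5.96 and 7.44 CPM in mock and at 16.4, 15 and 16.7 CPM with dexamethasone. The dexamethasone libraries lay close together and all above the mock libraries. The log2 fold change was 1.03 ± 0.27 (SE), with an edgeR adjusted p of 0.0147. Its call was lost without CT2, Dx4 or Dx6 (adjusted p = 0.0948, 0.0599 and 0.0718), and it was the 1 gene of the 35 called once the dawn-gene score entered the fit (1.26, adjusted p = 0.0307). ORC2 (AT2G37560), another core subunit, was at 5.01, 9.63 and 6.05 CPM in mock and 17, 13.4 and 11 CPM with dexamethasone, without overlap. It rose by 0.95 ± 0.31 on the log2 scale (edgeR adjusted p = 0.0439), a call kept without CT2 (0.0357) and lost without each other library, with adjusted p from 0.061 without Dx6 to 0.212 without Dx4. The call was also lost with limma-voom (0.0557), the Wald test (0.195) and the dawn-gene score (0.112). ORC1B (AT4G12620), the largest subunit in the form tied to dividing tissue, was at 17.5, 8.25 and 16.7 CPM in mock and 27.9, 25.2 and 21 CPM with dexamethasone. All dexamethasone libraries were above the mock ones, with CT2 far below the others. The log2 fold change was 0.82 ± 0.25 (edgeR adjusted p = 0.0326), a call lost without CT2 (0.52, adjusted p = 0.2), Dx4, Dx5 or Dx6.

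The other ORC genes did not pass the test. ORC4 (AT2G01120) did not overlap between groups, at 22.3 to 24.3 CPM in mock and 30 to 36.9 CPM with dexamethasone (log2 fold change 0.46 ± 0.17, edgeR adjusted p = 0.0877). ORC1A (AT4G14700), the paralogue of ORC1B, was the gene of lowest level per exon length among the 35, at 1.88 ± 0.789 CPM per kilobase of exon in mock (SD, n = 3), and its log2 fold change of 0.64 had a 95% interval of -0.14 to 1.41. Other genes share 34.2% of its exon sequence on either strand, which may affect its counts. ORC5 (AT4G29910) pointed the other way, at 25.1, 21.5 and 28.8 CPM in mock and 15.3, 21.4 and 21.9 CPM with dexamethasone. Its groups overlapped, and its log2 fold change of -0.36 had an interval of -0.78 to 0.07. ORC3 (AT5G16690) had an estimate of 0.38 (interval -0.07 to 0.82).

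The sliding clamp and CDC45 (AT3G25100) had smaller estimates, within those intervals. PCNA1 (AT1G07370) was at 55.1, 49.5 and 73.9 CPM in mock and at 83.3, 87.8 and 83.8 CPM with dexamethasone. PCNA2 (AT2G29570) was at 76.4, 64.6 and 80.9 CPM in mock and 107, 99 and 102 CPM with dexamethasone. Neither gene's groups overlapped, and in both CT2 was lowest and CT3 highest of the mock libraries. The log2 fold changes were 0.51 ± 0.15 and 0.47 ± 0.13 (edgeR adjusted p = 0.0275 and 0.0218), and 23.3% of the PCNA2 exon sequence is shared with other genes. Both calls were lost without CT2 (adjusted p = 0.18 and 0.137), Dx4 (0.0892 and 0.11), Dx5 (0.12 and 0.0717) or Dx6 (0.0977 and 0.0915), and that of PCNA1 also without CT1 (0.0627). CDC45 was at 15, 17.9 and 14.4 CPM in mock and 21.4, 26.8 and 24.8 CPM with dexamethasone, again without overlap. It rose by 0.62 ± 0.21 on the log2 scale with an edgeR adjusted p of 0.0496, at the edge of the threshold. Leaving out any 1 library ended its call, with adjusted p from 0.0743 without CT2 to 0.197 without Dx5. DESeq2 size factors (0.0501), limma-voom (0.0559), the Wald test (0.274) and the dawn-gene score (0.137) also ended it.

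Of the 3 ribonucleotide reductase genes measured 1 rose. TSO2 (AT3G27060), a small subunit gene and the gene of highest level per exon length among the 35 (83.3 ± 15.7 CPM per kilobase in mock, SD, n = 3), was at 147, 112 and 164 CPM in mock and 200, 172 and 196 CPM with dexamethasone. Its groups did not overlap and it rose by 0.43 ± 0.14 on the log2 scale (edgeR adjusted p = 0.0483). That call was lost without CT2 (0.28, adjusted p = 0.269), Dx4 (0.206), Dx5 (0.0936) or Dx6 (0.199). DESeq2 size factors (0.0506), limma-voom (0.0507), the Wald test (0.103) and the dawn-gene score (0.219) also ended it. RNR1 (AT2G21790), the large subunit, was at 108, 131 and 207 CPM in mock and 193, 193 and 222 CPM with dexamethasone, so CT3 lay within the dexamethasone range. Its log2 fold change of 0.44 ± 0.19 did not pass (edgeR adjusted p = 0.15), and was 0.75 without CT3 (adjusted p = 1.16e-06). RNR1 also passed with no filter beyond 1 count (edgeR adjusted p = 0.0122). RNR2A (AT3G23580), the other small subunit gene measured, was at 70.8 to 81.4 CPM in mock and 60.8 to 72.2 CPM with dexamethasone, with a log2 fold change of -0.20 and an interval of -0.48 to 0.09.

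**Figure D2:**
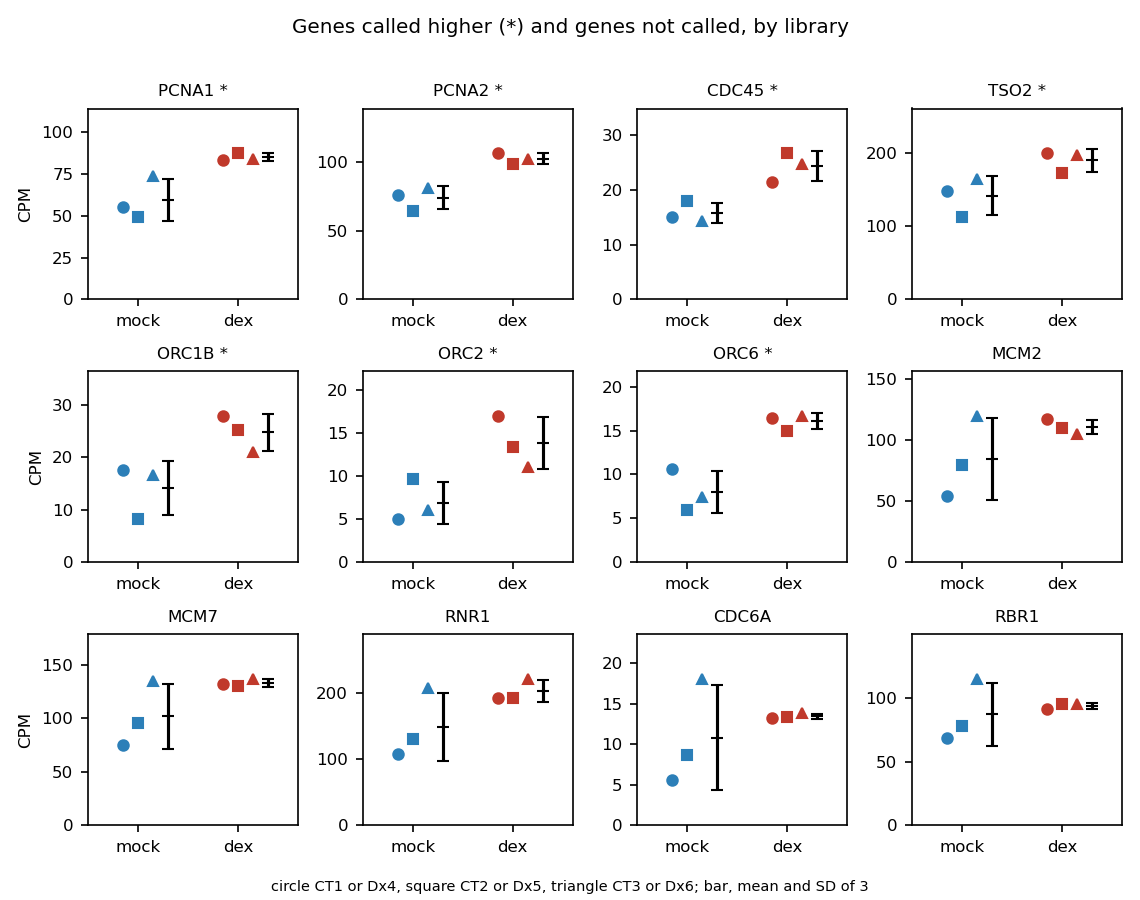
CPM (y axis, from 0) of 12 genes in the 3 mock libraries (blue) and 3 dexamethasone libraries (red), with mean and SD beside the points; an asterisk marks the 7 called genes. In the called genes the groups do not overlap, while in MCM2, MCM7, RNR1, CDC6A and RBR1 the mock triangle, CT3, reaches or passes the lowest dexamethasone library.

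The helicase genes MCM2 (AT1G44900), MCM3 (AT5G46280), MCM4 (AT2G16440), MCM5 (AT2G07690), MCM6 (AT5G44635) and MCM7 (AT4G02060) had the same pattern: none was called, and the ratio of the highest to the lowest mock library exceeded the fold between group means. MCM2 was at 53.9, 79.3 and 120 CPM in mock and at 117, 110 and 105 CPM with dexamethasone. MCM7, also named PROLIFERA, was at 75.2, 95.8 and 135 CPM in mock and 132, 130 and 137 CPM with dexamethasone. The 3 genes MCM3, MCM4 and MCM6 spanned 52.6 to 111, 52 to 112 and 45.7 to 73.5 CPM in mock and 93.4 to 112, 80.3 to 106 and 66.9 to 76.2 CPM with dexamethasone. In all 6 genes CT1 was lowest and CT3 highest among the mock libraries, and only MCM5, at 54.5, 85.7 and 101 CPM in mock and 107, 104 and 115 CPM with dexamethasone, did not overlap between groups. The highest mock library was 1.61 to 2.22 times the lowest in the 6 genes, against folds of 1.21 to 1.35 between groups and 1.05 to 1.32 times among dexamethasone libraries. Their log2 fold changes were 0.28 to 0.43 with edgeR adjusted p of 0.116 to 0.492. Without CT3 all 6 were called higher, by 0.47 to 0.80 on the log2 scale (adjusted p from 1.21e-05 for MCM3 to 0.0121 for MCM6), and without any other library none was. With no filter beyond 1 count, MCM3 and MCM5 were also called (edgeR adjusted p = 0.0238 and 0.0287). With the dawn-gene score in the fit their estimates were -0.30 to -0.03, and none was called. The score did not overlap between the groups, at 2.08 to 3.55 in mock and 1.72 to 2.05 with dexamethasone as mean log2 CPM. Score and treatment thus cannot be fully told apart in that fit. Only 3 of the 8 genes in the score passed the filter on low counts, so it rests in part on few counts.

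**Figure D3:**
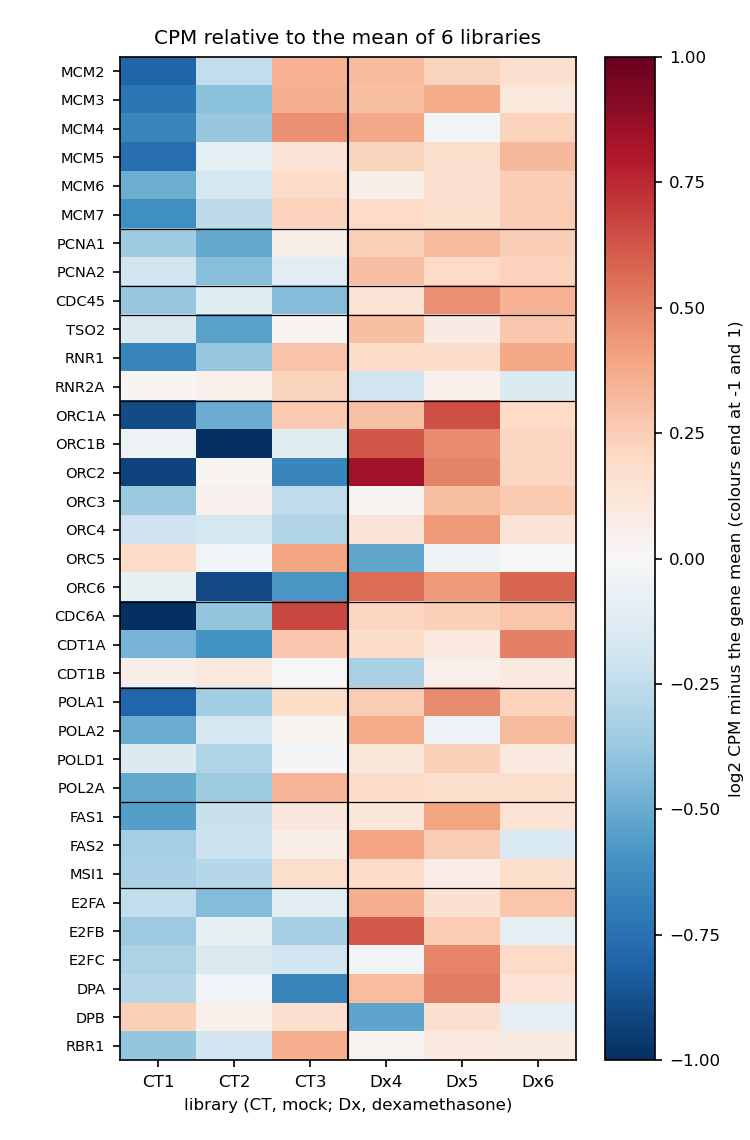
Log2 CPM of each of the 35 genes minus its mean over 6 libraries (colour, from -1 in blue to 1 in red), with genes in rows by role and libraries in columns. CT1 and CT2 are mostly blue and the dexamethasone columns mostly red; CT3 is red in the MCM rows and blue in CDC45, ORC2, ORC6 and DPA.

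The same order of mock libraries was counted over all 35 genes. CT1 was lowest and CT3 highest in mock in 17 of the 35 genes, against 22.6% of all genes tested, and the opposite order appeared in 0 of the 35, against 23.3%. Outside the helicase CT1 was lowest and CT3 highest in 11 of 29 genes (37.9%). CT3 was the highest of all 6 libraries in 7 of the 35, against 18.9%. The 17 held 6 of 6 MCM genes, 3 of 3 CAF-1 genes, 3 of 4 polymerase subunits and 1 of 7 ORC genes. The median ratio of highest to lowest mock library was 1.54 over the 35 genes and 1.35 over all genes tested, and the median ratio among dexamethasone libraries was 1.20 and 1.23. CDC6A (AT2G29680), a loader of the helicase, had the widest mock range, at 5.64, 8.71 and 18.1 CPM, 3.22 times from lowest to highest. Its dexamethasone libraries, at 13.2, 13.4 and 13.8 CPM, were nearly equal and below CT3. CDT1A (AT2G31270), its partner, was at 45.1, 41.3 and 75.3 CPM in mock and 70.7, 66.9 and 88.6 CPM with dexamethasone (log2 fold change 0.48 ± 0.20, edgeR adjusted p = 0.134, and 0.0146 with no filter beyond 1 count). The paralogue CDT1B (AT3G54710) had nearly equal groups, at 19.1 to 20.6 CPM and 15.3 to 20.5 CPM, and an interval of -0.53 to 0.33.

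The polymerase and CAF-1 genes lay between these patterns. POLA1 (AT5G67100), the catalytic subunit of the primase-polymerase alpha, was at 27.6, 37.6 and 54.4 CPM in mock and 57, 66.4 and 56.2 CPM with dexamethasone. Its groups did not overlap, although CT3 came close to Dx6. Its log2 fold change of 0.56 ± 0.19 just missed the threshold (edgeR adjusted p = 0.0537), and passed without CT3 (0.85, adjusted p = 9.82e-05), with limma-voom (0.0498), with library totals (0.049) and with no filter beyond 1 count (0.00523). Other genes share 15.3% of its exon sequence. POLA2 (AT1G67630), its regulatory partner, spanned 28.8 to 41.4 CPM in mock and 39.1 to 52.6 CPM with dexamethasone (0.40 ± 0.17, edgeR adjusted p = 0.127). POLD1 (AT5G63960), of polymerase delta, also did not overlap, at 44 to 53.9 and 58.1 to 64.2 CPM (0.30 ± 0.14, edgeR adjusted p = 0.185). POL2A (AT1G08260), the catalytic subunit of polymerase epsilon, had dexamethasone libraries of 53.7, 53.5 and 53.4 CPM below CT3 at 60 CPM, and 31.3% of its exon bases are found in other genes too. In CAF-1, FAS1 (AT1G65470), FAS2 (AT5G64630) and MSI1 (AT5G58230) had log2 fold changes of 0.40, 0.30 and 0.27 with edgeR adjusted p of 0.146 to 0.381. FAS1 did not overlap, at 24.4 to 38.6 and 38.9 to 47.1 CPM, while FAS2 did, at 16.9 to 22.3 and 19.1 to 27.9 CPM. MSI1, also a member of other chromatin complexes, was at 68.3, 70.1 and 96.7 CPM in mock and 97.5, 90.4 and 96.7 CPM with dexamethasone.

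Among the regulators none was called. RBR1 (AT3G12280) had the estimate nearest to 0 of the 35, at 68.3, 77.9 and 115 CPM in mock and 91, 95.3 and 94.8 CPM with dexamethasone, so CT3 was the highest of all 6 libraries. Its log2 fold change was 0.09 with an interval of -0.25 to 0.43, and 0.35 without CT3 (edgeR adjusted p = 0.0368). The activator E2FA (AT2G36010) did not overlap between groups, at 16 to 20 CPM in mock and 24.1 to 27.9 CPM with dexamethasone (0.53 ± 0.19, edgeR adjusted p = 0.0755, and 0.0351 without CT3). E2FB (AT5G22220), the other activator, and E2FC (AT1G47870), which mainly represses, had estimates of 0.52 and 0.44 with edgeR adjusted p of 0.137 and 0.164. E2FC did not overlap between groups (17.5 to 19.7 and 21.4 to 30.5 CPM), and E2FB did (15 to 18.3 and 18.1 to 29.6 CPM). The DP partners had estimates of opposite sign: DPA (AT5G02470) stood at 0.62 ± 0.23 without overlap (edgeR adjusted p = 0.0783), and DPB (AT5G03415) at -0.27 ± 0.18 with overlap (0.346). The highest mock library of the E2F and DP genes was 1.12 to 1.54 times the lowest, with DPA at 1.54, and CT3 was the highest mock library in E2FA alone among these 5 genes.

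Sequences before the annotated gene starts are shown because the helicase and clamp genes differed in them. The 4 words of the E2F consensus searched were TTTCCCGC, TTTCGCGC, TTTGCCGC and TTTGGCGC, on both strands, from 250 bases before to 50 bases after each start in RefSeq's TAIR10.1 annotation, with overlapping occurrences each counted. A word was present in 15 of 35 windows (42.9%), against 483 of 27443 windows of protein-coding genes (1.76%). It was present in 5 of 6 MCM genes, 4 of 7 ORC genes, 2 of 4 polymerase subunits, 2 of 3 CAF-1 genes, RNR1 and RBR1, and in neither PCNA gene, CDC45 nor TSO2. Sequences that differ from a word only in the last base were not counted, such as TTTGGCGG before CDC45 and TTTCGCGG before CDT1A. The 100 bases before the start are printed 5′ to 3′ on the gene's strand for genes with and without a word, with words on either strand in capitals.
MCM2: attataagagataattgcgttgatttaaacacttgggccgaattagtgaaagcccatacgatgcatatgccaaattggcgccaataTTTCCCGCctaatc
MCM5: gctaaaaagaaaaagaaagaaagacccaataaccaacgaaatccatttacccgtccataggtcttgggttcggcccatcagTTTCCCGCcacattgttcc
MCM6: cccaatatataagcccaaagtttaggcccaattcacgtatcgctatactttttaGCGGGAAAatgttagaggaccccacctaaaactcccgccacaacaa
MCM7: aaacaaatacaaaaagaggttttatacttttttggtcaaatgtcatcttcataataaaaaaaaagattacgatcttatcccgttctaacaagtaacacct
POLA1: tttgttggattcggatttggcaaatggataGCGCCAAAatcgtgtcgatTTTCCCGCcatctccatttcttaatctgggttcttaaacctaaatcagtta
ORC2: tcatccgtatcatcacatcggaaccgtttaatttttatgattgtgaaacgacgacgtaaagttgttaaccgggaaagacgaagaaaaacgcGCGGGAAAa
PCNA1: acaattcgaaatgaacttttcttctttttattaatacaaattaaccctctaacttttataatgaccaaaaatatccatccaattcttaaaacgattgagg
These windows lie at chr1:16970114-16970213 (plus strand) for MCM2, chr2:3527501-3527600 (minus strand) for MCM5, chr5:18010668-18010767 (minus strand) for MCM6, chr4:900536-900635 (plus strand) for MCM7, chr5:26776853-26776952 (plus strand) for POLA1, chr2:15758501-15758600 (plus strand) for ORC2 and chr1:2262937-2263036 (plus strand) for PCNA1. The count table carries no coordinates and its build was not stated, so windows were joined to counts by locus name.

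Genes with and without a word are set side by side here with no test. Of the 15 genes with a word, 1 was called higher (ORC2), and of the 20 without, 6 were. Over all genes tested the order was the other way, with 11.2% of 320 genes with a word and 5.77% of 15415 without called higher. CT1 was lowest and CT3 highest in mock in 12 of the 15 genes with a word and 5 of the 20 without. Over all genes tested that order appeared in 32.8% with a word and 22.4% without. The 15 genes include 5 of the 6 MCM genes, and all 6 MCM genes had this order. This split therefore partly repeats the helicase result. The median ratio of highest to lowest mock library was 1.85 with a word and 1.38 without, while the median log2 fold changes were 0.40 and 0.43, against 0.14 and 0.00 over all genes tested with and without one. A word is a match of letters, and its absence says only that these letters are not in the window. MCM7 has no word in its window and had the same order of mock libraries. Whether the words bear on any of these values was not tested.

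Other genes of the pathway, from lists written from its known parts, are given by their counts. Of 34 tested genes of the fork (among them GINS, RPA, RFC, further polymerase subunits, FEN1 and ligase) 8 rose and none fell, against 5.86% and 8.02% of all genes tested, with a median of 0.37. At an unadjusted p under 0.05, edgeR gave 14 of them, all higher, against 12.3% of all genes tested. AT5G26680, annotated as a 5′-3′ exonuclease family protein (FEN1), was at 25.7, 31.6 and 26.5 CPM in mock and 48.2, 52.4 and 53.8 CPM with dexamethasone. Its groups lay far apart, and its log2 fold change of 0.87 ± 0.16 (edgeR adjusted p = 0.000699) stayed past the threshold in all 13 alternatives. RPA subunits coat single-stranded DNA. RPA3A (AT3G52630) rose by 0.83 ± 0.17 and RPA1D (AT5G61000) by 0.72 ± 0.15, each called in 12 of 13 alternatives. RPA2B (AT3G02920) rose by 0.66 ± 0.19 (14.5% of its exon sequence shared), a call lost without CT1, Dx5 or Dx6 (adjusted p = 0.0542, 0.161 and 0.0602). AT3G55490, a GINS complex protein with 37.2% of its exon sequence shared, rose by 1.15 ± 0.28, a call lost without CT2 or Dx4 (0.0584 and 0.0801). The primase gene AT5G41880 rose by 0.64 ± 0.17, a call lost without Dx5 (0.0832). The Wald test ended the calls of AT3G55490, AT5G41880 and RPA2B (adjusted p = 0.0576, 0.0989 and 0.141), and the dawn-gene score those of RPA3A and RPA1D (0.0905 and 0.0909). The fork count was 14 without CT3 (11.3% of all genes), 6 without Dx4 (3.15%), 5 without CT1 (5.16%), CT2 (3%) or Dx6 (2.75%), 4 without Dx5 (2.85%) and 3 with DESeq2's Wald test (2.92%).

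The counts of the next lists stand beside 5.86% of all genes tested called higher and 8.02% called lower. Of 5 nucleotide supply genes DUT1 (AT3G46940), which removes dUTP, rose by 0.65 ± 0.17 (edgeR adjusted p = 0.0112), a call lost without CT2 or Dx6 (0.104 and 0.0842) and with the dawn-gene score (0.33, adjusted p = 0.285). Of 5 genes that maintain chromatin at the fork 3 rose: the DNA methyltransferase CMT3 (AT1G69770) by 0.47 ± 0.15, VIM1 (AT1G57820), which acts in DNA methylation, by 0.40 ± 0.12, and the histone methyltransferase ATXR6 (AT5G24330) by 0.77 ± 0.25. Each of these 3 calls was lost without CT1, CT2, Dx4, Dx5 or Dx6, with adjusted p up to 0.17, 0.179 and 0.167. The Wald test also ended them (0.096, 0.0957 and 0.241), and the dawn-gene score ended those of CMT3 (0.21, adjusted p = 0.423) and ATXR6 (0.246). None of 9 DEL repressors and DREAM partners was called by edgeR (2 higher at an unadjusted p under 0.05, against 12.3% of all genes tested, and 3 called higher without CT3, against 11.3%), with ALY2 (AT3G05380) at 0.35 ± 0.14 and MYB3R1 (AT4G32730) at 0.33 ± 0.14. Upstream of RBR1, of 17 tested kinases, D-type cyclins and KRP inhibitors 1 rose (CYCD3;3, 0.57 ± 0.12) and 1 fell (CYCD3;2, -0.73 ± 0.14), with a median of 0.14. Both counts of this list are near the shares of all genes tested. With the dawn-gene score CYCD3;2 stood at -0.37 and was not called (adjusted p = 0.0518). Of 13 mitosis genes 2 rose, AUR1 (AT4G32830) by 0.57 ± 0.15 and CDKB1;2 (AT2G38620) by 0.64 ± 0.18, with a median of 0.21. Other genes share 22.5% and 16.2% of their exon sequence. Leaving out Dx5 or Dx6 ended both mitotic calls (adjusted p up to 0.0851 for AUR1 and 0.115 for CDKB1;2), and leaving out CT2 ended the second (0.0889). The Wald test ended both (0.104 and 0.154). CT1 was lowest and CT3 highest among mock in 0 of the 13 mitosis genes and 14 of the 34 fork genes, against 22.6% of all genes tested.

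**Figure D4:**
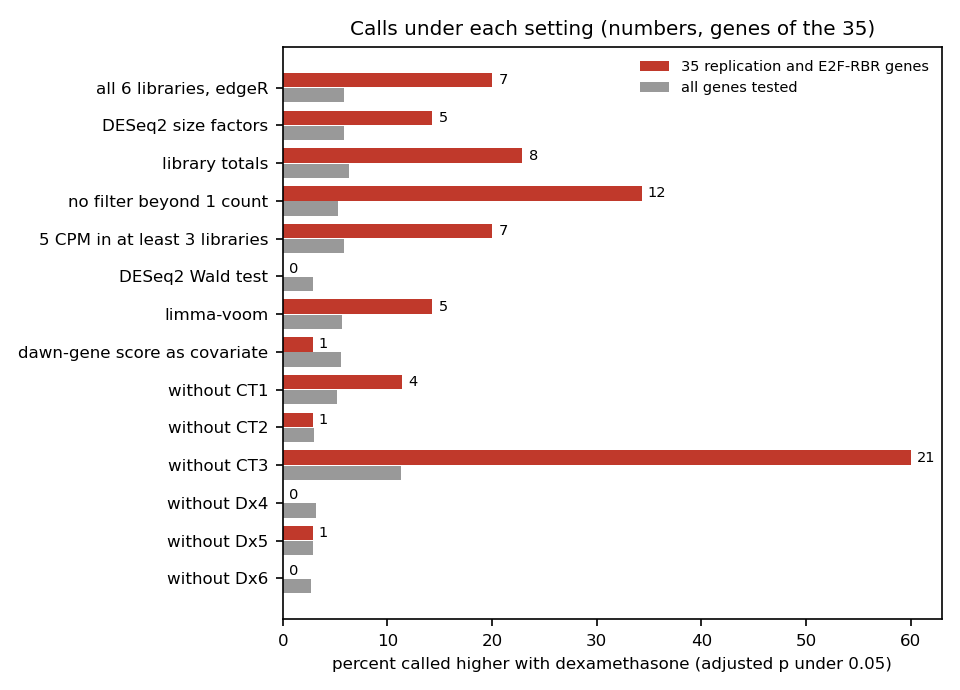
Percent of the 35 genes (red) and of all genes tested (grey) called higher at an adjusted p under 0.05 (x axis) in the fit of 6 libraries and in 13 alternatives (y axis); numbers give genes of the 35. The share is 21 of 35 without CT3 and 0 without Dx4, without Dx6 or with DESeq2's Wald test.

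Leaving out CT3 was the setting with the most calls. The 21 genes called without it held all 6 MCM genes, both PCNA genes, RNR1, TSO2, ORC1B, ORC6, CDC6A, CDT1A, POLA1, POLA2, POL2A, FAS1, MSI1, E2FA and RBR1, against 11.3% of all genes tested called higher in that fit. CDC45 and ORC2, called with all 6 libraries, were not among them (adjusted p = 0.0751 and 0.0621). Without CT1 the calls were PCNA2, TSO2, ORC1B and ORC6.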

How the data were processed

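The authors deposited raw counts of reads per gene locus, made with HTSeq per the name of the deposited table; the submitters' processing notes list TopHat, Bowtie, RSEM and Cufflinks, giving no roles. Libraries came from a stranded mRNA kit per the labels' protocols. The build, annotation and strand setting: not given in the sources used here. Columns named CT were read as mock, since it is the only group besides Dex (Dx); Dx4 to Dx6 fit no title's number, so columns were tied to groups only. The labels do not say whether replicates are plants or pools, and a p-value here reflects only how these samples vary, possibly for technical reasons.

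The test was run in R 4.3.3 with edgeR 4.0.16 (TMM scaling, filterByExpr with a minimum count of 10, robust quasi-likelihood test, two-sided, Benjamini-Hochberg adjustment over 15857 genes, threshold 0.05). CPM uses TMM-scaled library sizes. A standard error is the absolute log2 fold change over the root of F, and intervals are 95%. A count of 0 allows 3 counts, 1.38 to 1.88 CPM per library, for counting error only. Shared exon sequence is the percentage of a gene's 50-base words found in exons of other genes on either strand. The dawn-gene score is the mean log2 CPM (prior count 2) of 8 clock genes, each with equal weight. Only 3 of the 8 passed the filter on low counts. CDF1 and PRR9 had 0 to 9 counts per library, and CCA1, LHY and RVE8 had 1 to 15, which limits the score's precision. The procedure was tested on simulated counts. Alternatives used DESeq2 1.42.0, limma 3.58.1, other scaling and filters, the score as a covariate, and leaving out each library. Named genes are the 35 measured members, AP2, and up to 6 called genes, or up to 2 uncalled ones, of each other list. Marker lists are given as sums or as levels of single markers, with the called members. The members and lists were chosen with earlier results of these data known.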

Additional observations from a re-analysis of the deposited data

How the results depend on the processing

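With all 6 libraries 7 of the 35 genes were higher, against 12 with no filter beyond 1 count, 1 with the dawn-gene score added, 0 with DESeq2's Wald test (11 at an unadjusted p under 0.05), and 0 to 21 when 1 library was left out. It was 5 with DESeq2 size factors, 8 with library totals, 7 with a filter of 5 CPM and 5 with limma-voom. The median log2 fold change of 0.42 was 0.09 with the dawn-gene score and 0.28 to 0.56 when 1 library was left out. Of the fork list, 8 with all libraries, 4 were called with the dawn-gene score, and of the mitosis list 0 with the Wald test, without Dx5 or without Dx6 and 5 without CT3. Of the chromatin list 1 was called with the dawn-gene score, 0 with the Wald test and 0 to 4 when 1 library was left out. With the dawn-gene score the estimate changed sign for MCM2 (-0.18), MCM3 (-0.10), MCM4 (-0.30), MCM5 (-0.03), MCM6 (-0.11), MCM7 (-0.09), RNR1 (-0.11), CDC6A (-0.55), CDT1A (-0.04), POL2A (-0.19), MSI1 (-0.03) and RBR1 (-0.33), none of them called in that fit; the cause was not tested. Leaving out 1 library also changed the sign for CDT1B (-0.18 to 0.01) and RBR1 (-0.05 to 0.35). The AP2 log2 fold change stayed between 3.88 and 4.23 in the 13 alternatives. No paired analysis was possible because Dx4 to Dx6 carry numbers that no title has, so no dexamethasone library could be paired with a mock library. ORC1A had 5 to 17 counts per library, which limits its precision.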
